A study of Mus musculus with 12 samples.

Results

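The MHC class II presentation genes described here are H2-Aa, H2-Ab1 and H2-Eb1, the classical chains that carry peptide to the cell surface, Cd74, the invariant chain, H2-DMa, H2-DMb1 and H2-DMb2, the DM peptide exchange chaperone, H2-Oa and H2-Ob, the DO chains, and Ciita, the class II transactivator. They were chosen by name, as these 10 of the 22185 genes that had at least 1 exon-array probeset annotated to a single gene symbol. Together they held 86 such probesets out of 321091. A probeset is a small group of array probes that reads about an exon.

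Microglia, the resident macrophages of the brain, were taken from brains of mice 3 weeks of age by a flow cytometry gate for Ter119-, CD39+, CD11b+ and CD45low cells. RNA of 3 samples with the genotype Lrrc33+/+ (called WT) and of 3 samples with the genotype Lrrc33-/- (called KO-labelled) was hybridised to mouse exon arrays of Affymetrix, 1 array for each sample. No other treatment is given in the labels, which also do not state how many mice went into a sample or which exons the mutant allele lacks. P-values therefore measure only the spread between these samples, which the labels call biological replicates.

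Classical class II molecules are assembled in the endoplasmic reticulum around the invariant chain, which keeps their groove closed and guides them to endosomes. There cathepsins trim the invariant chain to a short peptide, CLIP, and DM exchanges CLIP for antigen peptide, while DO binds DM and restrains that exchange. Ciita is recruited by the RFX, CREB and NF-Y proteins to the promoters of class II genes and switches them on, and microglia in a healthy brain are known for low class II levels.

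Each gene's value was the median of its single-symbol probesets on each array, in log2 units of RMA signal, as deposited. A gene passed the test when its p-value from limma, adjusted by the Benjamini-Hochberg method over all 22185 genes, was under 0.05, and differences are KO-labelled minus WT with their standard error. For the 10 genes and Nrros, the gene-level value stands beside the median where the gene had a transcript cluster of its own. For other genes, gene-level results are given as counts for each pathway list and as values for named genes whose call differed. Both levels summarise the same 6 arrays and are not independent. Array medians over all genes lay between 6.47 and 6.53, and the median difference of all genes was -0.016. The number of arrays limits the precision. Signals of different genes are not compared with each other, because probes differ in brightness.

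Nrros, as Lrrc33 is now called, is the targeted gene, and its signal did not differ by the test. Its exon-level median was 9.83, 9.75 and 9.17 in WT replicates 1, 2 and 3 and 9.61, 9.57 and 9.61 in KO-labelled replicates 1, 2 and 3, with an adjusted p of 0.975, and its cluster (6845154) differed by 0.050 (adjusted p = 0.759). Probes outside the deleted exons would not read the deletion, and no label gives those exons. A median of 8 probesets can also hide a fall in a few of them, and single Nrros probesets were not looked at. These 2 summaries therefore do not check the labels. The direction of every difference below rests on the genotype labels alone.

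Of the 10 genes, Cd74 rose, H2-Oa and H2-Ob fell, and the other 7 did not pass the test. In the same fit 15.9% of all genes passed, 8.38% as higher and 7.53% as lower. Their differences had a median of 0.022, with 5 above 0 and 5 below. The 2 groups did not overlap in 3 of the 10 genes, Cd74, H2-Oa and H2-Ob, against 33.7% of all genes. At an unadjusted p under 0.05 the count was 4, H2-Aa being added, against 28.2% of all genes. In bulk RNA, fewer cells of a type and less RNA per cell cannot be told apart.

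**Figure D1:**
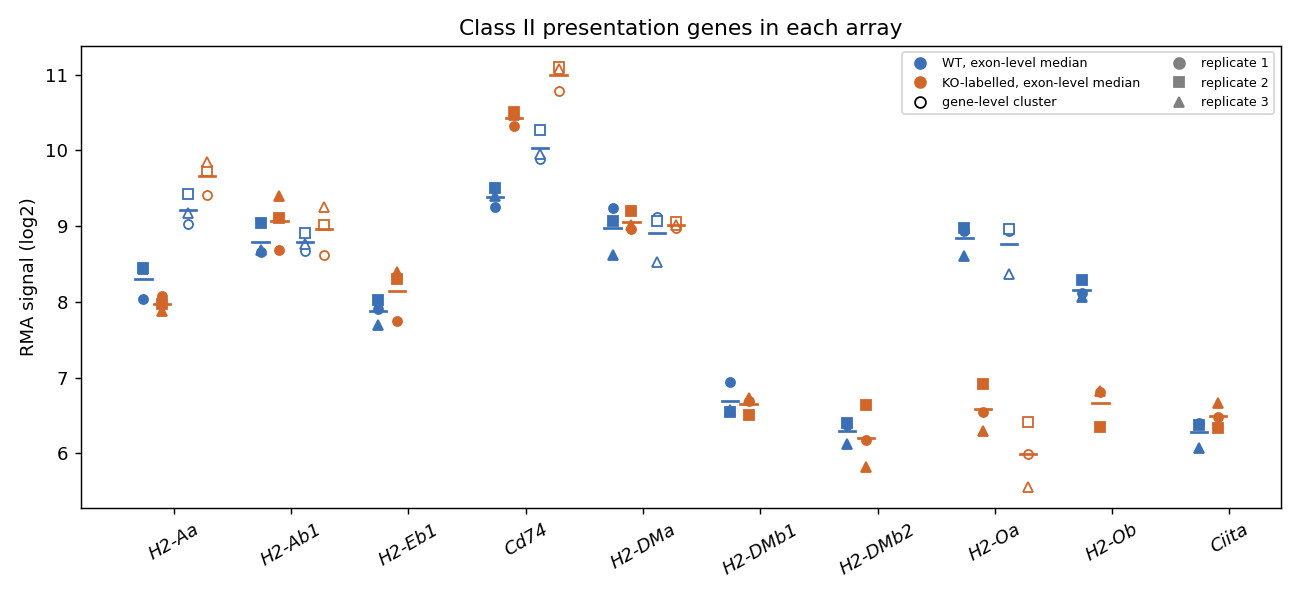
RMA signal (log2) of each class II presentation gene on each array. Filled symbols are exon-level gene medians, open symbols are gene-level clusters where the gene has its own, marker shapes are replicates 1 to 3, and bars are means of 3 arrays. Cd74 is higher and H2-Oa and H2-Ob are lower on all 3 KO-labelled arrays than on any WT array.

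The promoters are shown because the classical, DM and DO genes are known to share an upstream element and yet differed in their change. They are from RefSeq, build GRCm38.p6, on chromosome 17, read 5′ to 3′ on the gene's strand. Capitals mark the core of the X box, searched as GNAAC, and the core of the Y box, searched as GATTGG, with starts 25 to 40 bases apart, so that the cores do not overlap. Both strands were searched. The windows of 66 bases lie at chr17:34092285-34092350 (plus strand) for H2-Oa, chr17:34238797-34238862 (plus) for H2-Ob, chr17:34287857-34287922 (minus) for H2-Aa, chr17:34305757-34305822 (plus) for H2-Eb1, chr17:34153079-34153144 (plus) for H2-DMb1 and chr17:34145108-34145173 (plus) for H2-DMb2.
H2-Oa: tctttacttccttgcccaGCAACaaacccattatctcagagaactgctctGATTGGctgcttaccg
H2-Ob: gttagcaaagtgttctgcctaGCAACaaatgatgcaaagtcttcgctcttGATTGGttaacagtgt
H2-Aa: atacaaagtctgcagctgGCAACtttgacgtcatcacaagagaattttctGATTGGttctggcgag
H2-Eb1: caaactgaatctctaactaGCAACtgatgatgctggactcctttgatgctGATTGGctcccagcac
H2-DMb1: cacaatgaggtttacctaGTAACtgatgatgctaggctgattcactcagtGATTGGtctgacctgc
H2-DMb2: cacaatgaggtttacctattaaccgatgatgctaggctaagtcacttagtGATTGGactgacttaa

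The X core preceded the Y core by 32 bases in H2-Oa, H2-Aa and H2-DMb1, by 31 in H2-Eb1 and by 29 in H2-Ob, and the H2-DMb2 window held only the Y core by these letters. The H2-DMa promoters, of 2 annotated starts, held no pair. Of 9 genes looked up, all but Cd74, 7 had an entry, with 8 starts, while H2-Ab1 and Ciita had none. A pair at this distance was found in 5 of these 8 windows and in 303 of all 32851 promoter windows (0.922%), and the Y core in 7 of 8 and in 5292 of all (16.1%). The letters and the distance were set with these promoters in view, so the match is a description. The pair stood in the promoters of H2-Oa and H2-Ob, which fell, and equally in those of H2-Aa, H2-Eb1 and H2-DMb1, which did not pass the test.

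The classical chains did not pass the test as gene medians. H2-Ab1, the beta chain of I-A, had 8.65, 9.04 and 8.69 in WT replicates 1, 2 and 3 and 8.69, 9.11 and 9.40 in the KO-labelled ones. The groups overlapped, and the difference was 0.27 ± 0.19 (SE, n = 3, adjusted p = 0.421). Its own cluster (6850033) gave 0.18 with an adjusted p of 0.483. Leaving out single arrays moved the median from 0.11 (without KO-labelled replicate 3) to 0.46 (without KO-labelled replicate 1) and the cluster from 0.031 to 0.35, in the same order, with no pass. All 5 H2-Ab1 probesets were above 0, by 0.11 to 0.43, and none passed.

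H2-Eb1, the beta chain of I-E, stood at 7.90, 8.03 and 7.70 in WT and at 7.75, 8.31 and 8.39 in KO-labelled samples. Replicate 1 of the KO-labelled group lay within the WT range and its other 2 above it. The difference was 0.27 ± 0.18 (adjusted p = 0.397), and 8 of its 9 probesets were above 0 with none passing. The only cluster that covers H2-Eb1 also covers H2-Eb2, a neighbouring class II gene, and differed by 0.16 (adjusted p = 0.335).

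H2-Aa, the alpha chain of I-A, had no stable direction between the summaries. Its exon-level median was 8.04, 8.44 and 8.44 in WT and 8.08, 7.97 and 7.87 in KO-labelled samples, a difference of -0.33 ± 0.13 that did not pass (adjusted p = 0.156). Its cluster (6855018) was 9.03, 9.43 and 9.17 in WT and 9.41, 9.73 and 9.85 in KO-labelled samples, a difference of 0.45 ± 0.14 with an adjusted p of 0.0534. The KO-labelled samples were thus on average lower in the probeset median and higher in the cluster, and the groups overlapped in both. Single arrays decided its call: the median passed as lower without WT replicate 1 (-0.47, adjusted p = 0.0492), and the cluster passed as higher without WT replicate 2 (0.56, adjusted p = 0.0333) or when KO-labelled replicate 1 was left out (0.58, adjusted p = 0.0212).

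The 9 H2-Aa probesets showed where the summaries parted. Probeset 5415009 fell, from 8.04, 8.44 and 8.44 in WT to 7.55, 7.46 and 7.44 in KO-labelled samples, by 0.82 ± 0.17 (adjusted p over all probesets = 0.0367). It was the only H2-Aa probeset to pass, a call kept without WT replicate 1 and lost when any other array was left out, and it was the median probeset on every WT array. On every KO-labelled array the median was probeset 5185512, which had 7.75, 8.04 and 7.85 in WT and 8.08, 7.97 and 7.87 in KO-labelled samples, a difference of 0.10. The 4 brightest H2-Aa probesets, 4353190, 4727575, 5489966 and 4696140, had differences of 0.44, 0.61, 0.67 and 0.35, none of which passed. The other 3 were below the median of all probesets (5.82). The exon-level difference of H2-Aa was 0.51 with dim probesets left out, 0.15 as a mean of probesets and 0.30 with each probeset first centred on its own mean, the last an alternative chosen after seeing the data. None of these passed.

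Cd74 encodes the invariant chain, which is also a surface receptor for the cytokine MIF. Its exon-level median was 9.25, 9.50 and 9.40 in WT replicates 1, 2 and 3 and 10.32, 10.50 and 10.47 in the KO-labelled ones. Every KO-labelled sample lay above every WT sample. The rise was 1.05 ± 0.11 (SE, n = 3), or 2.07-fold (adjusted p = 0.000505), and 2.34% of all genes rose at least as far. Its cluster (6861341) was 9.88, 10.27 and 9.96 in WT and 10.79, 11.10 and 11.08 in KO-labelled samples. That rise was 0.95 ± 0.13 (adjusted p = 0.00131).

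The rise of Cd74 was shared by its probesets, whose positions along the gene were not used. All 15 probesets were higher in every KO-labelled sample than in any WT sample, by 0.49 to 1.33, and 12 passed. The share of all probesets whose groups did not overlap was not counted, and among gene medians it was 33.7%. Fewer passed when 1 array was left out: 8 without WT replicate 2 or KO-labelled replicate 1, 4 without KO-labelled replicate 2 or 3, and 3 without WT replicate 1 or 3. Over all probesets of the array 4.75% passed, 2.59% as higher and 2.16% as lower. The largest Cd74 difference was at probeset 5528013, which stood at 8.39, 8.90 and 8.71 in WT and at 9.78, 9.96 and 10.25 in KO-labelled samples. The diffSplice F test of limma asks whether the probesets of a gene differ in their change (Benjamini-Hochberg over 16692 genes), and Cd74 did not pass it (adjusted p = 0.101).

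**Figure D2:**
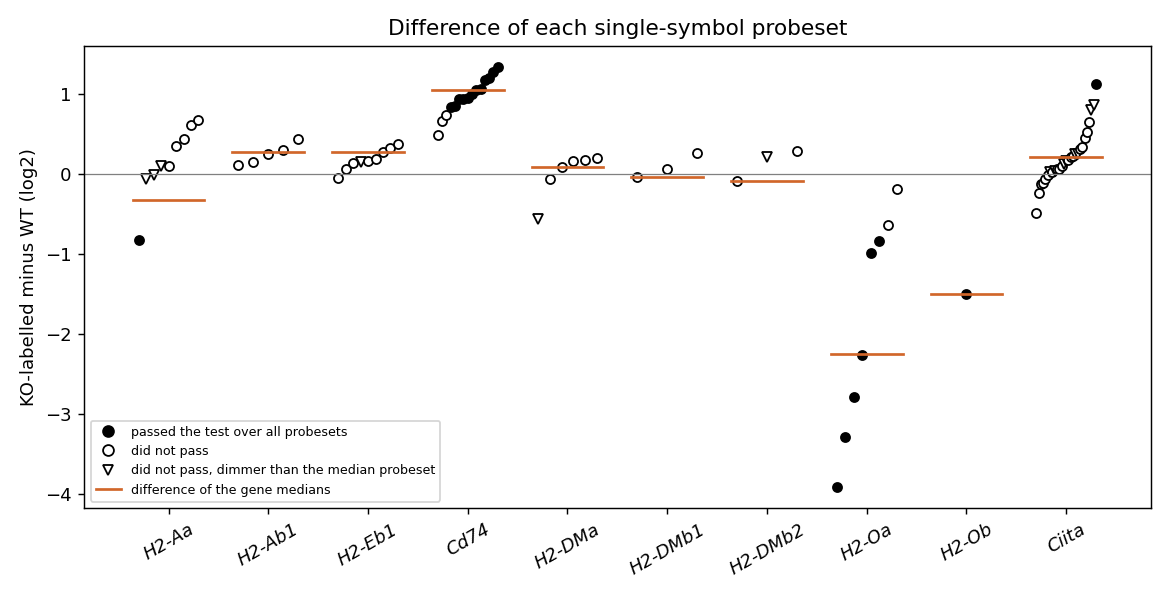
Difference of each single-symbol probeset (KO-labelled minus WT, log2), ordered within each gene. Filled points passed the test over all probesets, triangles lie below the median signal of all probesets, and bars are the difference of the gene medians. All 15 Cd74 points are above 0 and all 8 H2-Oa points are below 0, while the H2-Aa bar lies below all but 1 of its 9 points.

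The DM genes did not pass the test at either level. H2-DMa, the alpha chain, had 9.24, 9.06 and 8.62 in WT and 8.96, 9.20 and 9.02 in KO-labelled samples, with overlapping groups. The difference was 0.085 ± 0.17 (adjusted p = 0.800), and 0.11 in its cluster (6850012, adjusted p = 0.662). WT replicate 3 was the lowest of the 6 samples, and without it the differences were -0.094 and -0.077.

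H2-DMb1 and H2-DMb2 are near-identical beta chain genes, so probes may read both. H2-DMb1 was 6.95, 6.55 and 6.57 in WT and 6.69, 6.51 and 6.74 in KO-labelled samples (-0.042 ± 0.14, adjusted p = 0.886). H2-DMb2 was 6.37, 6.39 and 6.12 in WT and 6.17, 6.63 and 5.81 in KO-labelled samples (-0.090 ± 0.20, adjusted p = 0.825). Groups overlapped in both genes, each rested on 3 probesets, and both signs turned positive as means of probesets, at 0.089 and 0.13. The 3 probesets annotated to both genes differed by 0.10, 0.18 and -0.14 and the shared cluster by 0.10 (adjusted p = 0.515), and none of them passed.

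The DO chains carried the largest differences. H2-Oa, the alpha chain, had 8.94, 8.98 and 8.60 in WT replicates 1, 2 and 3 and 6.55, 6.92 and 6.30 in the KO-labelled ones, so the groups lay far apart. It fell by 2.25 ± 0.18 (SE, n = 3), which is 4.76-fold lower (adjusted p = 0.000134), and 0.365% of all genes fell at least as far. Its cluster (6850011) was 8.94, 8.96 and 8.37 in WT and 5.99, 6.41 and 5.56 in KO-labelled samples. There it was 6.83-fold lower (-2.77 ± 0.24, adjusted p = 0.000172). At the gene level 5 of the 10 genes had a cluster of their own, of which Cd74 passed as higher and H2-Oa as lower. Of all 16755 clusters 28.4% passed, 14.4% as higher and 14% as lower.

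H2-Oa probesets were not equally lower. All 8 had a negative difference and 6 passed. Probeset 4978547 had the largest fall, from 8.81, 9.06 and 8.29 in WT to 4.08, 5.26 and 5.08 in KO-labelled samples, by 3.91 ± 0.34 (adjusted p = 0.00100). Probesets 4612221, 4576492 and 4574020 passed with differences of -3.29, -2.79 and -2.27. Probesets 5218064 and 5127358 passed with -0.99 and -0.84, while 5385762 (-0.65, adjusted p = 0.0723) and 4944509 (-0.19, adjusted p = 0.752) did not pass. The KO-labelled signals of 4978547 were all below the median of all probesets, a range in which RMA compresses differences.

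**Figure D3:**
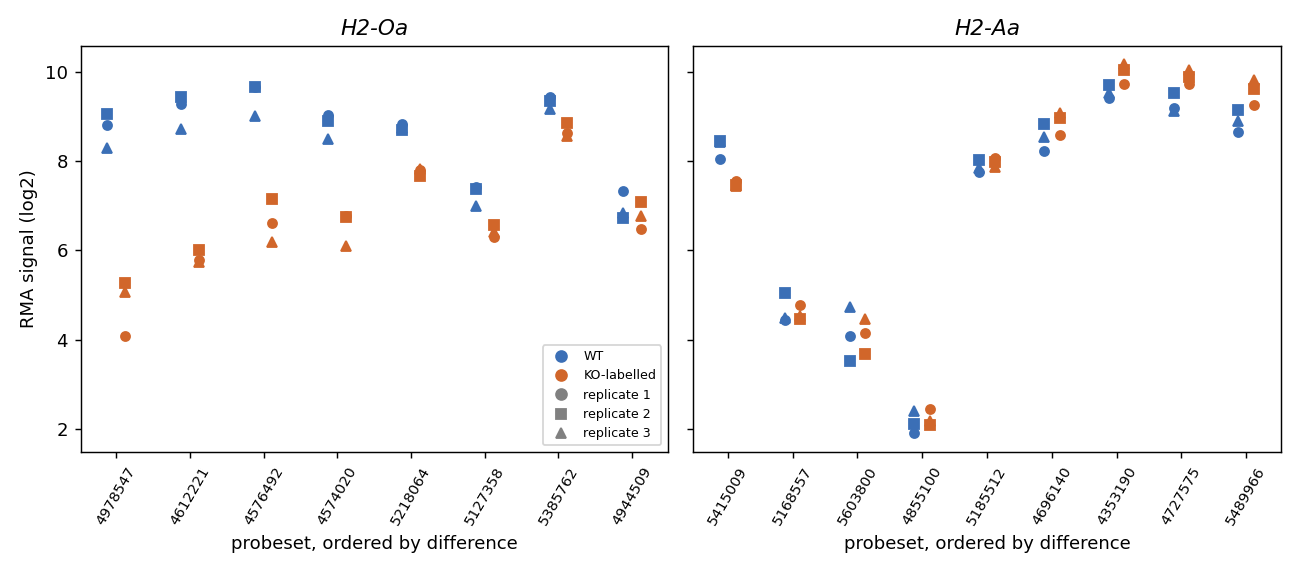
RMA signal (log2) of each H2-Oa and H2-Aa probeset on each array, ordered from the most negative to the most positive difference. Points are single arrays, colours are the groups and shapes the replicates. For H2-Oa the groups separate in 7 of 8 probesets, a count for which the share of all probesets was not computed. For H2-Aa probeset 5415009 is lower and 3 bright probesets are higher on all KO-labelled arrays.

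The probesets differed in their change by diffSplice in H2-Oa (adjusted p = 6.86e-13), H2-Aa (5.44e-05) and Ciita (0.000308), where 31.6% of 16692 genes tested passed. H2-Ab1, H2-Eb1, H2-DMa and H2-DMb1 did not pass (adjusted p = 0.887, 0.769, 0.943 and 0.660). H2-DMb2 and H2-Ob had fewer than 3 usable probesets. A probeset was usable when the higher of its 2 group means reached the median of all probesets. Some thus entered through 1 group only. Without that filter the adjusted p was 5.67e-12 for H2-Oa, 0.00475 for H2-Aa and 0.0162 for Ciita. The test does not tell a change of transcript from probes of unequal response.

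H2-Ob, the DO beta chain, rested on 1 probeset (4912878) and had no cluster of its own. It stood at 8.12, 8.29 and 8.07 in WT and at 6.82, 6.35 and 6.82 in KO-labelled samples, with every KO-labelled sample below every WT sample. The difference was -1.50 ± 0.15, or 2.82-fold lower (adjusted p = 0.000420 over genes and 0.00428 over probesets). Of all genes, 0.92% fell at least as far.

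Ciita, the master switch of the class II genes, did not pass. Its median over 27 probesets was 6.40, 6.38 and 6.07 in WT and 6.48, 6.34 and 6.66 in KO-labelled samples, with overlapping groups. The difference was 0.21 ± 0.13 (adjusted p = 0.370). It was positive in 21 of 27 probesets, of which 1 passed, 5611309, with 5.79, 5.34 and 5.43 in WT and 6.54, 6.34 and 7.05 in KO-labelled samples (1.12 ± 0.23, adjusted p = 0.0356). That call was kept without KO-labelled replicate 2 and lost when any other array was left out. Of the 27 probesets, 8 were below the median of all probesets. With 3 more probesets that the annotation names by an older symbol, a choice made after seeing the data, the difference was 0.26 (adjusted p = 0.206) and the groups no longer overlapped. Over all members 63 of 86 probesets had a positive difference, among them all 15 of Cd74 and the 21 of Ciita. Of the 86, 13 were called higher (3 to 8 when any single array was left out), of which 12 in Cd74 and 1 in Ciita. The 8 called lower were all in H2-Oa, H2-Ob and H2-Aa. Over all probesets of the array 2.59% passed as higher and 2.16% as lower. Probesets of the same gene are not independent.

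Classes were set against each other within each array, as differences between mean gene medians. The level of such a difference has no meaning across probes, but its shift between groups shows unequal change. Classical minus DM and DO chains was 0.28, 0.65 and 0.68 in WT replicates 1, 2 and 3 and 1.13, 1.34 and 1.62 in the KO-labelled ones, a shift of 0.83. Split by chaperone, classical minus DM shifted by 0.087 with overlapping groups, and DM minus DO by 1.86. The small shift of classical minus DM had no stable sign, at -0.076 without WT replicate 1, -0.050 without KO-labelled replicate 3 and 0.31 with dim probesets left out. DM minus DO was -1.01, -1.30 and -1.23 in WT and 0.59, 0.81 and 0.63 in KO-labelled samples. Cd74 minus the classical chains was 1.05, 1.00 and 1.13 in WT and 2.15, 2.04 and 1.92 in KO-labelled samples, a shift of 0.98. The classical mean includes the H2-Aa median, which differed by -0.33 here and by 0.51 with dim probesets left out. The size of each score with the classical chains therefore depends on how H2-Aa is summarised. These scores were formed from genes with known results and have no test.

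**Figure D4:**
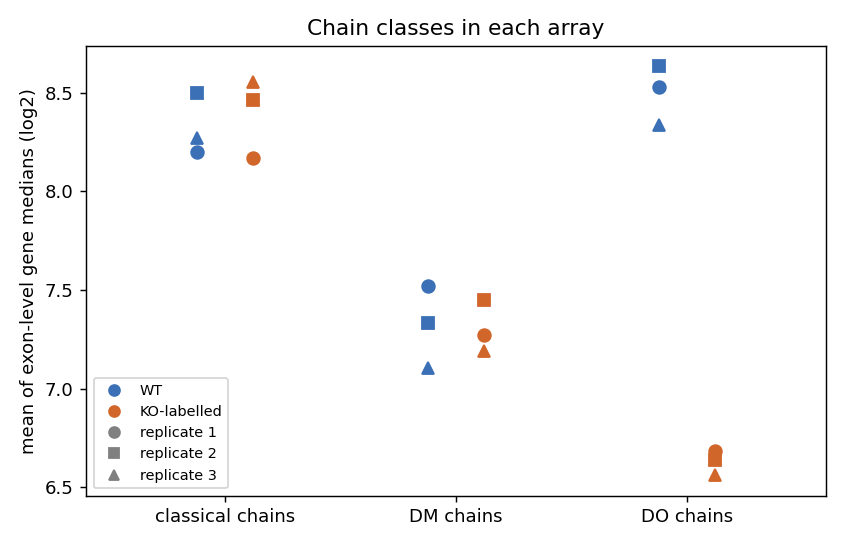
Mean of the exon-level gene medians (log2) of the classical, DM and DO chains on each array. Shapes are replicates and colours are groups. The classical and DM points of both groups overlap, and the DO points are at 8.34 to 8.64 in WT and at 6.56 to 6.68 in KO-labelled samples. The classical mean includes the H2-Aa median, whose direction changed with the summary of its probesets.

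Apart from Cd74 and Ciita, the members lie close together on chromosome 17. H2-Oa stands at one end, followed by Brd2, a chromatin reader, which fell by 0.59 (adjusted p = 0.0192). H2-DMa, H2-DMb2 and H2-DMb1 come next and did not pass. Then come Psmb9, Tap1, Psmb8 and Tap2, which serve class I presentation, and of these Tap1, a subunit of the peptide transporter, rose by 0.68 ± 0.13 (adjusted p = 0.00986). H2-Ob lies between Tap2 and H2-Ab1, neither of which passed (-0.090 and 0.27). A list of non-member genes of the wider region, chosen by name and not complete, held 11 measured genes, some outside the span from H2-Oa to H2-Eb1. Of these 1 rose, 2 fell and 8 did not pass, where 8.38% of all genes passed as higher and 7.53% as lower. The second that fell was Notch4, outside that span (-0.40, adjusted p = 0.0334). Brd2 lost its call without WT replicate 1 or 2 or KO-labelled replicate 2 or 3 (adjusted p = 0.0720, 0.0552, 0.0512 and 0.0502), and Notch4 lost it whichever array was left out (0.0525 to 0.107). Clusters stood for 10 of the 11 genes, of which 2 passed as higher and 3 as lower, where 14.4% and 14% of all clusters did. Psmb9 was at 0.35 as a median (adjusted p = 0.190) and 0.43 as a cluster (adjusted p = 0.0229).

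**Figure D5:**
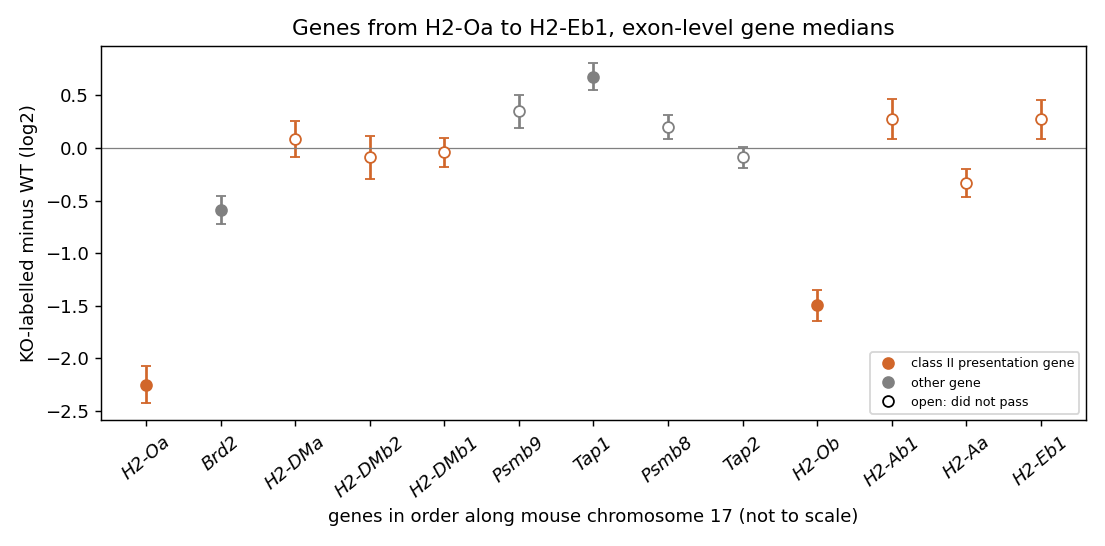
Difference of exon-level gene medians (KO-labelled minus WT, log2) for the genes from H2-Oa to H2-Eb1 in their order on chromosome 17, not to scale. Points are differences, bars are standard errors over 3 arrays a group, and open points did not pass. H2-Oa (-2.25) and H2-Ob (-1.50) both passed as lower, and the DM genes between them did not pass.

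Other listed genes of the pathway, with H2-Eb2 of this region counted among them, moved in both directions. Of 34 measured, 5 rose, 7 fell and 22 did not pass, where 8.38% of all genes passed as higher and 7.53% as lower. The median difference of the 34 was -0.048. At the gene level 32 had a cluster, of which 9 passed as higher and 11 as lower, where 14.4% and 14% of all clusters did. Together with the 11 listed genes of the wider region, 9 of 45 medians passed as lower, and between 4 and 7 when single arrays were left out. Antigen processing genes held 3 falls and 1 rise among 8. Ctsl, a cathepsin, fell from 11.70, 11.72 and 11.85 to 10.57, 10.57 and 10.40 (-1.25 ± 0.10, adjusted p = 0.000140). Ctsd, the lysosomal aspartic protease, fell by 1.02 and Ctss, which makes the last cut that leaves CLIP, fell by 0.64 (adjusted p = 0.000283 and 0.00435). Ctsh, an aminopeptidase, rose by 0.69 (adjusted p = 0.00240). Of their 8 clusters 3 passed as higher and 4 as lower.

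Of the proteins that assemble on class II promoters 1 of 7 fell and 6 did not pass, where 7.53% of all genes passed as lower. The one that fell was Nfya, the NF-Y subunit that contacts the Y box, with 10.54, 10.48 and 10.33 in WT and 9.70, 9.73 and 9.81 in KO-labelled samples (-0.70 ± 0.10, adjusted p = 0.00245). Of the 7 clusters 2 passed as lower, the second being that of Nfyc, another NF-Y subunit (-0.55, adjusted p = 0.0179), while its exon-level difference was -0.037. Of 10 measured regulators upstream of Ciita 3 fell, with differences of -0.62 for Irf1, -0.46 for Irf8 and -0.44 for Jak2 (adjusted p = 0.0357, 0.0201 and 0.0278). Between 0 and 2 of these regulators passed as lower when any single array was left out. Irf1 lost its call without WT replicate 1 or 2 or KO-labelled replicate 1 or 2 (adjusted p = 0.105 to 0.113), Irf8 without WT replicate 1 or 2 or KO-labelled replicate 1 or 3 (0.0629 to 0.0777), and Jak2 when any array but KO-labelled replicate 3 was left out (0.0511 to 0.0889). Of their 10 clusters 1 passed as higher and 4 as lower, where 14.4% and 14% of all clusters did. Among them were 2 that had not passed as medians, Prdm1 (0.57, adjusted p = 0.00157) and Socs1 (-0.22, adjusted p = 0.0390).

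The Marchf genes encode ligases that remove class II from the surface, and neither of the 2 measured passed as a median. Marchf1 had opposite signs at the 2 levels, with 0.18 as a median (adjusted p = 0.442) and -0.32 as a cluster, which passed as lower (adjusted p = 0.0182). Marchf8 had 0.24 as a median and 0.16 as a cluster (adjusted p = 0.148 and 0.0764).

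Partners of Cd74 and costimulatory genes were 2 lists of 3 genes. In each list 2 rose as exon-level medians and 1 did not pass, where 8.38% of all genes passed as higher. Among the 3 partners of Cd74, Cd44, its signalling co-receptor, rose from 6.58, 6.80 and 6.63 to 8.19, 8.29 and 7.86 (1.44 ± 0.14, adjusted p = 0.000324). Cxcr4, another MIF co-receptor, rose by 1.03 (adjusted p = 0.00194), while Mif itself did not pass (-0.23, adjusted p = 0.146). Both Cd44 and Cxcr4 passed as clusters. Of the 3 costimulatory genes Cd86 rose by 0.69 (adjusted p = 0.00530) and Cd40 by 0.36 (adjusted p = 0.0408), and Cd80 did not pass as a median (0.18, adjusted p = 0.460) but passed as higher at the gene level (0.31, adjusted p = 0.0130). Cd40 lost its call when any single array was left out (adjusted p = 0.0634 to 0.135). H2-Eb2 had a difference of 0.055 (adjusted p = 0.842), which turned negative as a mean of probesets.

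Markers of brain macrophages also differed between the groups. All 10 measured microglia markers fell, where 7.53% of all genes passed as lower. Their mean level was 12.07 to 12.15 in WT and 9.43 to 9.54 in KO-labelled samples. The differences were -5.40 for Sall1, -4.70 for Slc2a5, -3.74 for Tmem119 and -3.36 for Siglech. Of 9 markers of border-associated macrophages, which are known to carry class II, 8 rose and 1 did not pass, where 8.38% of all genes passed as higher. Their mean level went from between 8.80 and 8.85 to between 11.16 and 11.30, with Ms4a7 up by 3.54, Mgl2 by 3.43, Pf4 by 3.12 and Cd163 by 2.63. The part of either marker list in the Cd74, H2-Oa and H2-Ob results was not tested.

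Other cells that express class II were looked at because B cells are known for H2-Ob and dendritic cells for high Cd74. None of 9 B cell markers passed, where 15.9% of all genes did. Their mean level was 6.42 to 6.74 in WT and 6.40 to 6.90 in KO-labelled samples, 4 of them lay below the median of all genes, and the differences of Cd79a and Pou2af1 were 0.29 and 0.28 (adjusted p = 0.510 and 0.419). Of 10 dendritic cell markers 5 lay below the median of all genes. Zbtb46 rose by 0.81, Itgae fell by 1.19 and Cd209a fell by 0.52, 7 did not pass, and the call of Cd209a was lost without WT replicate 2 or 3 or KO-labelled replicate 1 or 2 (adjusted p = 0.0759 to 0.102). Zbtb46 was 0.46 as a mean of probesets, 0.33 with centred probesets and 0.27 at the gene level, and Itgae was -0.76 with centred probesets, all passing. The mean level was 6.01 to 6.27 in WT and 5.96 to 6.05 in KO-labelled samples.

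Of 6 monocyte markers 2 passed as lower, where 7.53% of all genes did. Ccr2 fell by 0.78 and Plac8 fell by 0.65. The mean level of the 6 was 5.95 to 6.26 in WT and 5.35 to 5.80 in KO-labelled samples, with 5 of 6 below the median of all genes. Plac8 lost its call when any array but KO-labelled replicate 3 was left out (adjusted p = 0.0601 to 0.106). With dim probesets left out Ccr2 was -0.41 and Plac8 -1.03. At the gene level 4 of 5 monocyte marker clusters passed as lower, where 14% of all clusters did. All 8 T and NK cell markers were below that median and none passed. Their mean level was 5.47 to 5.70 in WT and 5.51 to 5.75 in KO-labelled samples, and Cd3e and Cd3g differed by 0.30 and 0.27 (adjusted p = 0.328 and 0.445). RMA signal has no true 0, so absence cannot be read from a low signal. The part of these markers in the results was not tested.

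The genes most like Cd74 over the 6 arrays were Txndc16, Aldh2 and Idua (Pearson r = 0.999, 0.999 and 0.998), and those most like H2-Oa were Fscn1, Tmem63a and Map4k4 (r = 0.9996, 0.9989 and 0.9988). The search covered 11684 genes at or above the median signal in at least 1 group. All of these values share the same arrays and the same difference between 2 groups, so r is a description.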

How the data were processed

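Total RNA of sorted microglia was measured on Affymetrix mouse exon arrays in 3 WT and 3 KO-labelled samples. The deposited values are log2 signals at a gene level (16755 transcript clusters) and at an exon level (1236087 probesets), made by the authors with RMA, per the submitters' processing notes, which also name oligo and limma for the exon level. RMA subtracts background, gives all arrays the same distribution of values and combines the probes of a feature, and it compresses differences of dim features. The sources used here do not name versions, the array annotation or a genome build, and probe positions were not used. All columns were mapped, with 0 left over.

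Symbols came from the platform annotation, updated through a RefSeq gene table of GRCm38.p6. At the exon level 321091 probesets had 1 symbol (320190 matched, 901 kept as given), 7796 several and 907200 none. At the gene level 14996 clusters had 1 symbol, 1019 several and 740 none. Features with several symbols name no gene.

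Gene medians, clusters and probesets were each tested with limma 3.58.1 in R 4.3.3 (lmFit and eBayes, two-sided, no covariate), with Benjamini-Hochberg adjustment over all features and a threshold of 0.05. Exon usage was tested with diffSplice on probesets at or above the median signal, in genes with at least 3. The fits were also run on simulated data with known changes. Those data held normal errors and only probesets at or above the median signal, so they check the code and not these results. The named genes are all members and, from each list, up to 4 genes past the threshold with the largest difference, or 2 where none passed, plus the 3 most alike to Cd74 and to H2-Oa. Mif, Cd80, Nfyc, Prdm1 and Socs1, and the genes between H2-Oa and H2-Eb1, were named after their values were seen. The members, the lists of pathway genes and cell type markers and the tests were chosen with earlier results of these data known. Alternatives covered the summary of probesets, dim features, normalization, limma's settings, array weights, the replicate block and leaving out each array.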

Additional observations from a re-analysis of the deposited data

How the results depend on the processing

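H2-Oa (15 of 15 alternatives, -2.77 to -1.66), H2-Ob (14 of 14, -1.58 to -1.34) and Cd74 (15 of 15, 0.95 to 1.11) kept direction and call. Of the other members only H2-Aa passed anywhere as an exon-level median: -0.47 (adjusted p = 0.0492) without WT replicate 1, which made 3 genes called lower in place of 2. Signs turned in genes that had not passed. As a mean of probesets, H2-Aa was 0.15, H2-DMa -0.0030, H2-DMb1 0.089, H2-DMb2 0.13, Marchf1 -0.14 and H2-Eb2 -0.12. With dim probesets left out, H2-Aa was 0.51, H2-DMb2 0.098, Marchf1 -0.35, H2-Eb2 -0.24 and Cd3g -0.075. With probesets centred before the median, chosen after seeing the data, H2-Aa was 0.30, H2-DMb1 0.057, H2-DMb2 0.15, Marchf1 -0.21 and H2-Eb2 -0.17. H2-Aa was 0.45 as a gene-level cluster. Leaving out single arrays gave ranges of -0.094 to 0.22 for H2-DMa (-0.077 to 0.22 at the gene level), -0.11 to 0.089 for H2-DMb1, -0.30 to 0.11 for H2-DMb2 and -0.081 to 0.16 for H2-Eb2, with H2-DMa negative without WT replicate 3.

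At the gene level 2 members were called higher in place of 1 under a second quantile normalization, trend and robust settings, and with dim genes left out, and 1 to 2 with single arrays left out, because H2-Aa then passed (adjusted p = 0.0212 to 0.0438). Pathway and region genes called higher numbered 11 in place of 6 both as means of probesets and with centred probesets, and those called lower 4 to 7 in place of 9 without single arrays. Member probesets called higher numbered 3 to 8 in place of 13 without single arrays. Of all probesets, 99190 in place of 58662 passed with trend and robust settings and 30206 to 41162 without single arrays. Genes passing for exon usage numbered 3432 to 5333 in place of 5278 without single arrays. Classical minus DM and DO chains shifted by 1.08 with dim probesets left out, and DM minus DO by 1.68 with centred probesets. The causes were not tested. For H2-Aa only the values of its probesets, described above, were looked at.

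The replicate numbers showed no sign of pairing the samples. Same-numbered deviations correlated at -0.033, -0.027 and 0.0030 across gene medians and at -0.029, -0.0071 and 0.039 across clusters. With 3 arrays in a group this does not settle whether samples were paired. With the replicate number as a block, 2736 in place of 3529 genes passed, 1 member was called higher and 2 lower as before, 2 at the gene level were higher (H2-Aa, adjusted p = 0.0228), 5 member probesets were higher, 33603 probesets passed, and Cd74 passed for exon usage (adjusted p = 0.0142).

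Precision is limited by 3 arrays in a group. Dim probesets read near the array's floor, H2-Ob rests on 1 probeset, and H2-DMb1 and H2-DMb2 share sequence.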
